A study of Mus musculus with 10 samples.

Results

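The genes described here encode channels, sensors and pumps that move calcium ions into the cytosol of a cell or out of it. They are 10 of the 24454 genes listed in the count files of brown adipose tissue (BAT): Ryr2, Itpr1, Itpr2, Itpr3, Cacna1a, Stim1, Orai1, Atp2a2, Atp2b1 and Mcu. Ryr2 and Cacna1a were picked for their rise from the same comparison that is shown here, so their values are given as a description without a test. The other 8 genes were listed for what they do. All 10 genes were among the 13568 genes that passed the filter on low counts.

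BAT of 5 control and 5 *Stat5* Adipoq mice was analysed by RNA-Seq, with 1 library per mouse, to ask how gene expression differs when adipocytes lack STAT5. All mice were males of the C57BL/6N strain, 2 months of age and fed ad libitum. The titles of all samples carry the word basal. *Stat5* Adipoq mice carry floxed Stat5 alleles and Cre recombinase under the Adipoq promoter, which acts in adipocytes, so that endothelial, immune, nerve and muscle cells of the tissue keep Stat5. The sample labels call the controls wild type, whereas the methods describe them as floxed littermates without Cre. Because each library comes from a separate mouse, p-values judge the difference between genotypes against the spread between mice. Libraries of controls held 8488129 to 19514904 counts in genes and those of *Stat5* Adipoq mice 9401827 to 15686868. Levels are given as CPM, counts relative to library size after TMM scaling in edgeR.

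The deleted genes were examined first. Stat5a was 110, 130, 92.6, 86.9 and 107 CPM in control replicates 1 to 5 and 20.7, 15.8, 16.2, 16.6 and 16.1 CPM in *Stat5* Adipoq replicates 1 to 5. Stat5b was 82.0, 84.8, 83.7, 76.6 and 91.9 CPM in the controls and 21.0, 22.0, 21.4, 22.9 and 21.5 CPM in *Stat5* Adipoq BAT. Every *Stat5* Adipoq library lay below every control for both genes, as the labels require. The log2 fold changes were -2.62 (SE 0.12) and -1.94 (SE 0.06). These genes share sequence, and 10.8% of the 50-base words of Stat5a also occur in Stat5b.

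The tissue label was compared with its markers. Ucp1, the uncoupling protein of brown adipocytes and on average the most abundant of 12 brown adipocyte markers, ranged from 5402 to 13830 CPM in controls and from 7843 to 12660 CPM in *Stat5* Adipoq BAT. Summed over the 12 markers, the level was 24770, 23230, 31800, 28590 and 20920 CPM in control replicates 1 to 5 and 24330, 22710, 27540, 28010 and 28210 CPM in *Stat5* Adipoq replicates 1 to 5. None of the 12 was called different by edgeR, DESeq2 or limma-voom, and 2 had an unadjusted p below 0.05 from edgeR.

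Control replicate 3 stood apart in genes of skeletal muscle, which borders BAT. All 11 fast muscle markers and all 6 markers listed as slow muscle were highest in this library. The fast markers summed to 101, 55.45, 4008, 37.4 and 373.7 CPM in control replicates 1 to 5 and to 91.3, 46.0, 41.6, 55.6 and 55.6 CPM in *Stat5* Adipoq replicates 1 to 5. Myh4, a myosin heavy chain of fast fibres, was 1496 CPM in control replicate 3. It was the most abundant of them on average only through control replicates 3 and 5, as the light chain gene Myl1 was higher in the other 8 libraries. Control replicate 5 had the next highest sum. Of the 11 fast markers edgeR and limma-voom called 0 and DESeq2 called 5, and 10 had an unadjusted p below 0.05 from edgeR. Without control replicate 3 this count was 9, and their median log2 fold change moved from -5.55 to -2.44. For the 6 markers listed as slow the count was 3 with all libraries and 0 without control replicate 3. The markers listed as slow summed to 144 CPM in control replicate 3 and to 3.28 to 5.62 CPM in the other libraries. Of that 144 CPM, 88.5 CPM came from Myh2, a myosin heavy chain gene that is not confined to slow fibres. Of 10 liver markers, 8 were also highest in control replicate 3. The most abundant liver marker, the acute phase protein gene Hp, ranged from 704 to 1026 CPM in controls and from 749 to 997 CPM in *Stat5* Adipoq BAT.

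Calcium ions are stored in the endoplasmic reticulum, which is filled by SERCA pumps and emptied through ryanodine receptors and inositol trisphosphate receptors. When the store is low, the sensor STIM1 opens the ORAI1 channel of the plasma membrane, and voltage-gated channels are a separate route of entry. Mitochondria take up calcium through the uniporter MCU. In brown adipocytes, adrenergic stimulation raises cytosolic calcium. Cycling of calcium across the SERCA pump uses ATP and can release heat, and neither calcium nor heat was measured in these libraries.

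Ryr2 encodes the ryanodine receptor known from heart muscle, a calcium release channel of the endoplasmic reticulum. In GRCm38 the gene (Entrez 20191) lies on the minus strand at chr13:11553099-12106945. Ryr2 was 0.287, 0.454, 1.80, 1.67 and 1.55 CPM in control replicates 1 to 5, from 3, 5, 15, 33 and 17 counts. It was 3.77, 6.09, 12.4, 15.4 and 13.2 CPM in *Stat5* Adipoq replicates 1 to 5, from 45, 95, 134, 140 and 165 counts. All *Stat5* Adipoq libraries lay above all controls, control replicates 1 and 2 were the lowest controls, and replicates 1 and 2 were the lowest of *Stat5* Adipoq BAT. Means were 1.15 ± 0.722 CPM for controls and 10.2 ± 4.98 CPM for *Stat5* Adipoq BAT (SD, n = 5 each). The log2 fold change was 3.09. Control counts of Ryr2 were few, which limits how well the size of the fold is known. Its direction was fixed by the choice of the gene for its rise, which also favours a large fold. In whole tissue, a change in the number of cells of a type and a change in RNA per cell cannot be told apart.

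Of the other ryanodine receptor genes, only Ryr1 had enough counts for the test. Ryr1, the receptor of skeletal muscle, was 2.87, 0.817, 182, 0.303 and 13.5 CPM in control replicates 1 to 5 and 1.76, 0.192, 0.185, 0.441 and 0.639 CPM in *Stat5* Adipoq replicates 1 to 5. It was highest in control replicates 3 and 5, the libraries with most fast muscle markers, and the genotypes overlapped. Ryr1 had a log2 fold change of -5.91 (edgeR adjusted p = 0.0982) with all libraries and of -2.71 without control replicate 3. Ryr3 had between 1 and 9 counts per library and was not tested.

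Ryr2 was 1.80 CPM in control replicate 3, close to the 1.67 CPM of control replicate 4, while the fast markers summed to 4008 CPM there. Without control replicate 3 its log2 fold change was 3.22. Of 9 heart markers, Nppb and Nkx2-5 had no count in any library, Myh6, Tnnt2 and Myl7 had at most 3 counts in each, and Tnni3 and Nppa had at most 5. The heart markers summed to 2.59, 2.36, 10.2, 2.33 and 2.65 CPM in control replicates 1 to 5 and to 2.60, 1.795, 1.75, 1.10 and 1.84 CPM in *Stat5* Adipoq replicates 1 to 5. The most abundant on average was the myosin light chain gene Myl4, at 0.661 to 2.28 CPM. Myl2, a myosin light chain of heart and slow muscle that is named after its values were seen, was 7.58 CPM in control replicate 3 and at most 0.575 CPM in the others. EdgeR, DESeq2 and limma-voom called 0 of the heart markers tested, and Myl2 had an unadjusted p below 0.05 with a log2 fold change of -5.10. Without control replicate 3, 0 of them had an unadjusted p below 0.05. The part of heart muscle in the level of Ryr2 was not tested.

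**Figure D1:**
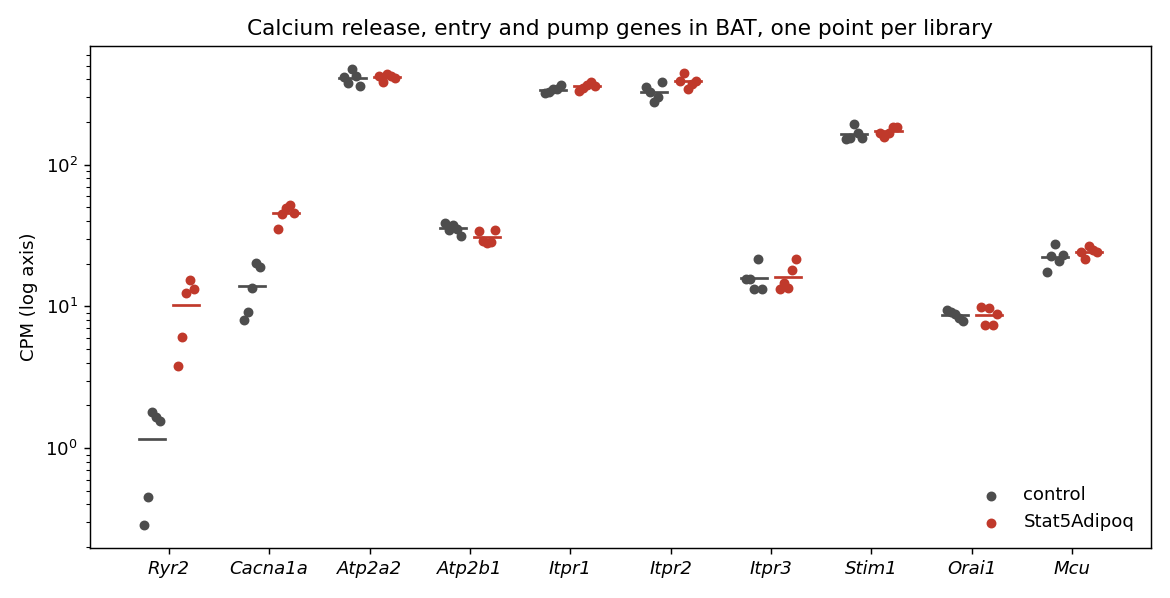
Levels of the 10 calcium genes in each library, in CPM on a log axis, with control libraries in grey and Stat5Adipoq libraries in red, and a line at the mean of 5 libraries. The genotypes are separate for Ryr2 and Cacna1a, the genes picked for their rise, and overlap for the other 8 genes.

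The inositol trisphosphate receptors, which release calcium from the endoplasmic reticulum when a receptor at the cell surface activates phospholipase C, are encoded by Itpr1, Itpr2 and Itpr3. Itpr1 was 320.3, 327, 341, 345 and 366 CPM in control replicates 1 to 5 and 330.4, 346, 364, 383 and 362 CPM in *Stat5* Adipoq replicates 1 to 5. The genotypes overlapped over most of their range. For Itpr1 the log2 fold change was 0.07 (95% limits -0.05 to 0.20, edgeR adjusted p = 0.614, exact two-sided permutation test p = 0.151).

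Itpr2 was 356, 327, 277, 299.8 and 384 CPM in the controls and 389, 444, 344, 373 and 389 CPM in *Stat5* Adipoq BAT. Control replicates 2, 3 and 4 lay below every *Stat5* Adipoq library and control replicates 1 and 5 lay among them. The log2 fold change was 0.24 (95% limits 0.04 to 0.44), and it did not pass the threshold over all genes (edgeR adjusted p = 0.24, exact permutation test p = 0.0556). Itpr3, at 13.3 to 21.6 CPM in controls and 13.25 to 21.7 CPM in *Stat5* Adipoq BAT, had a log2 fold change of 0.02 (95% limits -0.35 to 0.38, edgeR adjusted p = 0.982).

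Within the receptor family, levels were compared per kilobase of exon. Itpr1 made up 53.8% ± 3.01 (SD, n = 5) of the summed CPM per kb in control and 51.1% ± 3.07 (SD, n = 5) in *Stat5* Adipoq BAT. The share of Itpr2 was 43.4% ± 3.26 (SD, n = 5) and 46.4% ± 3.21 (SD, n = 5), and Itpr3 contributed 2.77% ± 0.649 (SD, n = 5) and 2.54% ± 0.521 (SD, n = 5). The exact two-sided permutation test gave adjusted p = 0.298, 0.298 and 0.548 over 3 tests, where the smallest possible unadjusted p is 0.0079. No share passed the threshold, which does not show that the shares were equal. Which of Itpr1 and Itpr2 had the larger share depended on the exon length used. With the exons of all annotated transcripts, a choice made after the data were seen, the control shares were 43.7% and 52.1%.

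Cacna1a encodes the pore of the P/Q-type voltage-gated calcium channel, best known from nerve endings. The gene (Entrez 12286) lies on the plus strand at chr8:84338631-84640251. Cacna1a was 8.04, 9.17, 13.5, 20.2 and 19.1 CPM in control replicates 1 to 5 and 35.0, 44.6, 49.6, 51.8 and 45.9 CPM in *Stat5* Adipoq replicates 1 to 5. All *Stat5* Adipoq libraries lay above all controls, and as with Ryr2 the lowest values were those of control replicates 1 and 2 and of *Stat5* Adipoq replicate 1. Means were 14.0 ± 5.55 CPM for controls and 45.4 ± 6.48 CPM for *Stat5* Adipoq BAT (SD, n = 5 each). The log2 fold change was 1.68. Its direction was again fixed by the choice of Cacna1a for its rise, which favours a large fold. Of its exon bases, 3.81% are covered by a gene on the opposite strand, Gm16183, and the share was 2.58% for Itpr3, 1.58% for Itpr1, 1.37% for Atp2a2 and 0.305% for Orai1. Whether counting used the strand is not given in the sources used here.

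Most of 12 neuron markers had few counts. Th had no count, and Rbfox3, Snap25, Syt1, Dbh, Nefl, Nefm and Elavl4 had at most 3 counts in each. The neuron markers summed to 2.87, 4.45, 3.97, 3.79 and 2.92 CPM in control replicates 1 to 5 and to 4.61, 3.78, 4.155, 3.195 and 5.83 CPM in *Stat5* Adipoq replicates 1 to 5. Their most abundant gene was Stmn2, a tubulin-binding protein of axons, at 2.20 to 3.36 CPM in controls and 2.75 to 4.63 CPM in *Stat5* Adipoq BAT. It was the only neuron marker with enough counts for the test and was called by neither edgeR, DESeq2 nor limma-voom. Its log2 fold change was 0.40 (edgeR unadjusted p = 0.0399, edgeR adjusted p = 0.301, exact permutation test p = 0.0476). The part of nerve in the level of Cacna1a was not tested.

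Ryr2 and Cacna1a were the 2 of 10 genes whose genotypes did not overlap, which 4.39% of all tested genes also showed, and nothing is read from this count because the genes were picked for it.

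Store-operated entry is carried by Stim1, the calcium sensor of the endoplasmic reticulum, and Orai1, the channel it opens. Stim1 was 153, 155, 195.5, 169 and 155 CPM in the controls and 168, 156, 167, 185 and 183 CPM in *Stat5* Adipoq BAT. Orai1 was 9.48, 9.17, 8.78, 8.24 and 7.86 CPM in the controls and 9.98, 7.44, 9.79, 7.38 and 8.87 CPM in *Stat5* Adipoq BAT. The Stim1 values of *Stat5* Adipoq BAT lay within the range of the controls, whose highest value was in control replicate 3. For Orai1, *Stat5* Adipoq replicates 1 and 3 lay above the controls, replicates 2 and 4 below them and replicate 5 among them. Stim1 had a log2 fold change of 0.06 (95% limits -0.11 to 0.23, edgeR adjusted p = 0.807), and from 0.03 to 0.12 when single libraries were left out, the highest without control replicate 3. For Orai1 the 95% limits were -0.25 and 0.25 (edgeR adjusted p = 0.999).

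Atp2a2 encodes SERCA2, the pump that returns calcium to the endoplasmic reticulum. It was 418, 381, 476, 419.9 and 362 CPM in the controls and 425, 383, 435, 425 and 413 CPM in *Stat5* Adipoq BAT. The *Stat5* Adipoq libraries all lay within the range of the controls, whose highest value was in control replicate 3. The log2 fold change was 0.02 (95% limits -0.14 to 0.18, edgeR adjusted p = 0.954). Its libraries therefore allow a fall to 0.906 of the control level or a rise to 1.13 times that level.

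Atp2b1, a pump that carries calcium out across the plasma membrane, was 38.9, 34.8, 37.5, 35.1 and 31.5 CPM in the controls and 34.1, 29.2, 27.9, 28.4 and 34.8 CPM in *Stat5* Adipoq BAT. *Stat5* Adipoq replicates 1 and 5 lay among the controls and replicates 2, 3 and 4 below them. The log2 fold change was -0.20 (95% limits -0.38 to -0.02), and it did not pass over all genes (edgeR adjusted p = 0.266, exact permutation test p = 0.0476).

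Mcu, the pore of the mitochondrial calcium uniporter, was 17.6, 22.7, 27.5, 20.8 and 22.9 CPM in the controls and 24.1, 21.7, 26.8, 25.1 and 24.2 CPM in *Stat5* Adipoq BAT. The *Stat5* Adipoq libraries all lay within the range of the controls. Its log2 fold change was 0.13 (95% limits -0.10 to 0.36, edgeR adjusted p = 0.634), and it ranged from 0.06 without control replicate 1 to 0.21 without control replicate 3.

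Among the 8 genes listed for what they do, edgeR called 0 at an adjusted p under 0.05, against 2.71% of all tested genes in either direction, 1.4% higher and 1.31% lower. DESeq2 and limma-voom also called 0 of the 8. An unadjusted p below 0.05 was found for 2 of them, Itpr2 and Atp2b1, which lay on opposite sides of 0, and for 1 of the 8 without control replicate 3. Over all 13568 genes tested, 2064 had an unadjusted p below 0.05. A p-value above the threshold does not show that these genes were equal between the genotypes, and the confidence limits give the sizes that the data allow.

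Per kilobase of exon, Atp2a2 was the most abundant of the 10 genes in control BAT at 71.9 ± 7.66 CPM per kb (SD, n = 5). It was followed by Stim1 at 40.5 ± 4.42, Itpr1 at 34.4 ± 1.79 and Itpr2 at 27.9 ± 3.62 CPM per kb (SD, n = 5 each). The intervals of mean ± SD of Stim1 and Itpr1 overlapped, although each control library of Stim1 lay above all those of Itpr1. Mcu at 7.77 ± 1.26, Atp2b1 at 4.99 ± 0.397 and Orai1 at 4.64 ± 0.353 CPM per kb came next, and of these Atp2b1 and Orai1 overlapped in the same sense. The lowest were Itpr3 at 1.77 ± 0.378 and Cacna1a at 1.76 ± 0.700, which overlapped, and Ryr2 at 0.0686 ± 0.0430 CPM per kb.

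In *Stat5* Adipoq BAT, Cacna1a at 5.72 ± 0.818 CPM per kb (SD, n = 5) stood between Mcu and Orai1 in this order and overlapped with Orai1. Ryr2 at 0.605 ± 0.296 CPM per kb (SD, n = 5) was again the lowest. Itpr2 at 32.9 ± 3.11 overlapped with Itpr1 at 36.2 ± 2.01 CPM per kb. Even in *Stat5* Adipoq BAT the level of Ryr2 per kilobase was thus below that of each inositol trisphosphate receptor gene. The order below Atp2a2 depended on the exon length. With the exons of all annotated transcripts, control levels were 22.2 CPM per kb for Itpr2, 18.5 for Itpr1, 15.9 for Stim1, 3.79 for Orai1, 3.22 for Mcu and 2.34 for Atp2b1. The place of Cacna1a between Mcu and Orai1 in *Stat5* Adipoq BAT also rests on the exon length used.

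A further set of 9 lists held 150 matched genes of calcium handling, of which 127 passed the filter. These lists leave out Ryr2, Cacna1a and the 8 genes listed for what they do, so the counts and medians below do not cover them. In these lists 2 genes were higher and 1 was lower in *Stat5* Adipoq BAT, together 2.36% of those tested, beside 2.71% of all genes tested. The median log2 fold change was -0.07 over the 127 genes and -0.00 over all genes tested. DESeq2 called 7 of the 127 and limma-voom 2, beside 660 and 386 of all 13568 genes. An unadjusted p below 0.05 from edgeR was found for 30 of the 127, 11 higher and 19 lower, and for 2064 of the 13568. Without control replicate 3 these counts were 22 and 2116.

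Camk2b, the beta subunit of a protein kinase that is activated by calcium and calmodulin, was 31.2, 29.9, 27.8, 23.4 and 38.8 CPM in control replicates 1 to 5. It was 47.2, 56.3, 53.8, 56.9 and 52.6 CPM in *Stat5* Adipoq replicates 1 to 5. All *Stat5* Adipoq libraries lay above all controls. Camk2b had a log2 fold change of 0.82 (SE 0.11, edgeR adjusted p = 0.00271), and it was called in each of the 17 other fits. It was the only one of 23 tested genes of calcium-dependent kinase and calcineurin signalling to be called, and the median of this list was -0.09. DESeq2 called Camk2b and also Camk2a, the alpha subunit, which lay on the other side of 0 with a log2 fold change of -2.15 in edgeR. Camk2a was 10.5 CPM in control replicate 3, 0.758 to 1.83 CPM in the other controls and 0.320 to 1.09 CPM in *Stat5* Adipoq BAT.

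Tmem38b encodes TRIC-B, a potassium channel of the endoplasmic reticulum that supports calcium release. It was 54.4, 56.6, 68.2, 57.3 and 66.4 CPM in the controls and 71.0, 82.3, 74.9, 79.0 and 75.3 CPM in *Stat5* Adipoq BAT, again with no overlap. The log2 fold change was 0.34 (SE 0.07, edgeR adjusted p = 0.0303). The call of Tmem38b was lost in 7 of 10 fits that each omitted a library, and kept when the omitted library was *Stat5* Adipoq replicate 1 or control replicate 3 or 5. With the replicate number as a block it was also lost, and edgeR adjusted p-values of the lost calls lay between 0.064 and 0.0812.

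Tmem38b was the only called gene among 16 tested release channels and their partners, a list without Ryr2, Itpr1, Itpr2 and Itpr3. The median of this list was -0.18, and 7 of its genes had an unadjusted p below 0.05 with a lower level in *Stat5* Adipoq BAT. These included Ryr1, Trdn, Jph2, Casq1 and Hrc, which were chosen for mention after their values were seen and were highest in control replicate 3 with the muscle markers. Without control replicate 3, 4 genes of the list had an unadjusted p below 0.05 and the median was -0.16. The part of muscle in these values was not tested beyond this. Fkbp1a, a ryanodine receptor binding protein and the most abundant gene of the list per kilobase, had a log2 fold change of 0.04 (edgeR adjusted p = 0.837).

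Itpka, a kinase that converts inositol trisphosphate to inositol tetrakisphosphate and is among the genes the study names from these libraries, was 16.85, 17.6, 10.7, 11.8 and 17.8 CPM in the controls. It was 11.1, 10.6, 7.20, 7.27 and 8.47 CPM in *Stat5* Adipoq BAT. Control replicate 3 lay below *Stat5* Adipoq replicate 1, and the genotypes were otherwise separate. The log2 fold change was -0.74 (SE 0.18, edgeR adjusted p = 0.0481). The call was lost in 7 of 10 fits that each omitted a library, and kept when the omitted library was *Stat5* Adipoq replicate 1 or control replicate 3 or 4. It was also lost with library size scaling (edgeR adjusted p = 0.056) and with limma-voom (adjusted p = 0.0676). It was the only called gene of 19 for production and removal of inositol trisphosphate, and the list had a median of -0.02. DESeq2 called Itpka and Plcb4, a phospholipase C, in this list. Gna11, a G protein subunit that activates phospholipase C, was the most abundant of the list per kilobase. Its log2 fold change was -0.09 (edgeR adjusted p = 0.465).

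No gene was called by edgeR in the other 6 lists, which leave out Cacna1a, Stim1, Orai1, Atp2a2, Atp2b1 and Mcu. Among 13 voltage-gated channel subunits the median log2 fold change was -0.05 and 3 genes had an unadjusted p below 0.05, or 1 gene without control replicate 3, where the median was -0.12. Cacnb1 was the most abundant of these 13 per kilobase, at 1.4 CPM per kb on average over both genotypes. Cacna1a, which is not in the list, was 1.8 CPM per kb in controls and 5.7 in *Stat5* Adipoq BAT. Cacnb1 had a log2 fold change of -0.56 (edgeR adjusted p = 0.263). Among 18 genes of store-operated and TRP entry the median was -0.01 and 3 had an unadjusted p below 0.05. Saraf, which slows store-operated entry and was the most abundant of them per kilobase, had a log2 fold change of 0.02 (edgeR adjusted p = 0.961). Neither DESeq2 nor limma-voom called a gene in these lists.

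The median was -0.09 for 8 tested pumps and their regulators, where 2 genes had an unadjusted p below 0.05. Atp2a1, the SERCA pump of fast muscle and named after its values were seen, was one of these, at 1084 CPM in control replicate 3 and 1.47 to 91.7 CPM in the other controls. Bsg, a chaperone of plasma membrane pumps and the most abundant gene of that list, had a log2 fold change of 0.18 (edgeR adjusted p = 0.733). The median was 0.23 for 7 sodium-calcium exchangers, with 3 genes at an unadjusted p below 0.05, and 0.15 without *Stat5* Adipoq replicate 1. Their most abundant gene Slc24a3 had a log2 fold change of 0.12 (edgeR adjusted p = 0.306).

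The mitochondrial uniporter complex had a median of -0.03 over 12 genes, with 2 at an unadjusted p below 0.05. DESeq2 called 1 of them, Micu2, a gatekeeper of the uniporter, whose edgeR adjusted p was 0.0774 and which edgeR called when *Stat5* Adipoq replicate 2 or control replicate 3 was omitted. Calcium-binding proteins of the endoplasmic reticulum had a median of -0.04 over 11 genes, with 1 at an unadjusted p below 0.05. DESeq2 called that gene, Sdf4, with an edgeR adjusted p of 0.0722. Micu2, Sdf4, Plcb4 and Camk2a are named because DESeq2 called them. Vdac1, a porin of the outer mitochondrial membrane, and the chaperone gene Calr were the most abundant genes of these lists per kilobase and were not called (edgeR adjusted p = 0.44 and 0.771).

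**Figure D2:**
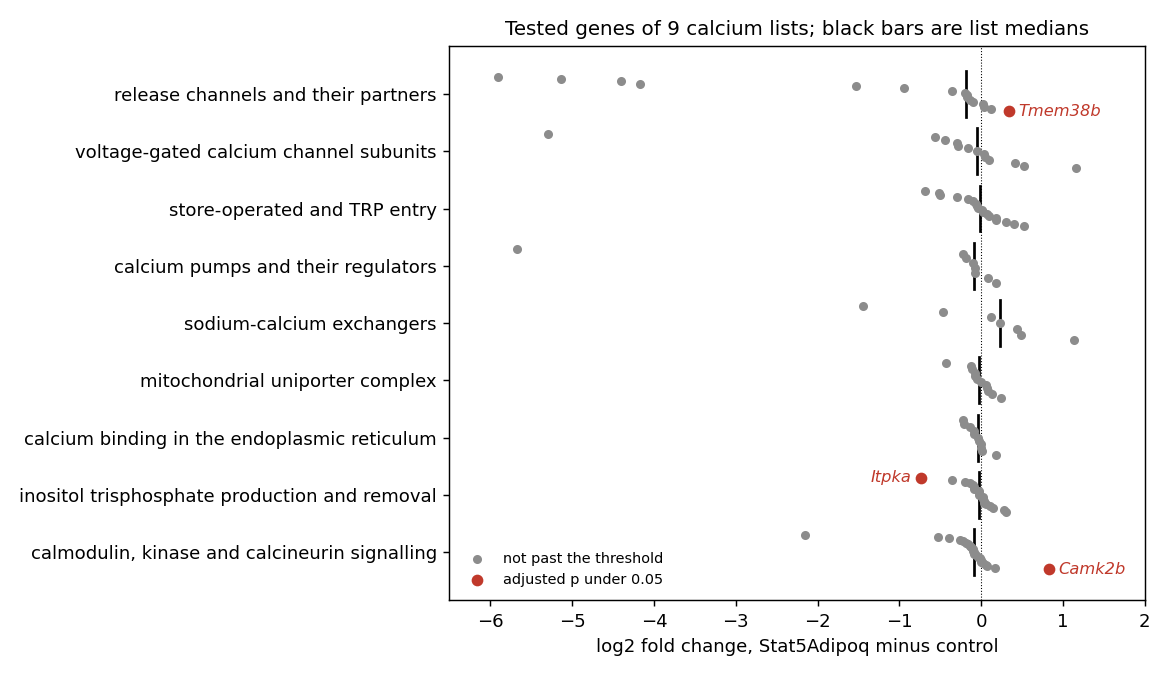
Log2 fold changes of Stat5Adipoq minus control for the 127 tested genes of 9 calcium lists. Called genes are in red and the list medians are black bars. The lists leave out Ryr2, Cacna1a and the 8 genes listed for what they do. The called genes are Tmem38b, Itpka and Camk2b, and the points far to the left are mostly genes of skeletal muscle that are highest in control replicate 3.

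**Figure D3:**
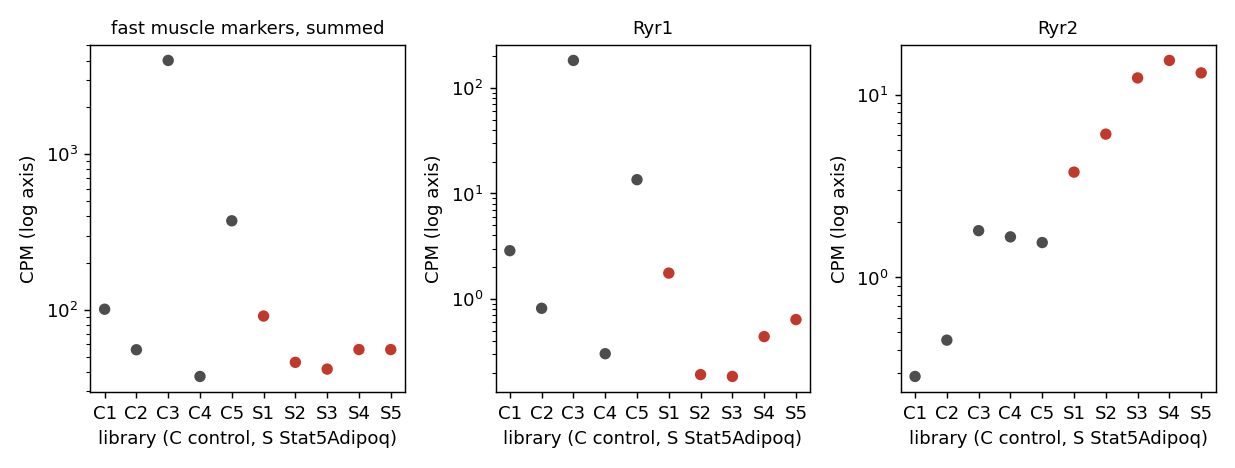
Levels in each of the 10 libraries in CPM on log axes, with control libraries in grey and Stat5Adipoq libraries in red, for the summed fast skeletal muscle markers, Ryr1 and Ryr2. The muscle sum and Ryr1 are highest in control replicate 3 and next highest in control replicate 5, whereas Ryr2 is highest in the Stat5Adipoq libraries.

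Schwann cell markers varied between the controls, as the 8 markers summed to 118, 301, 206, 472 and 199 CPM in control replicates 1 to 5 and to 294, 238, 206, 221 and 199 CPM in *Stat5* Adipoq replicates 1 to 5. Of the 8 markers 1 was called higher and none lower by edgeR. Another 6 had an unadjusted p below 0.05 and log2 fold changes below 0. The called gene was S100b, a calcium-binding protein that adipocytes also express. It was the most abundant gene of the list over both genotypes, whereas in controls Mbp, a myelin protein gene, was higher (mean of 94.1 against 62.4 CPM). S100b was 45.9, 55.8, 70.1, 70.3 and 69.9 CPM in the controls and 137, 148, 129, 132 and 109 CPM in *Stat5* Adipoq BAT, without overlap (log2 fold change 1.07, SE 0.12, edgeR adjusted p = 0.000849). Markers of smooth muscle, endothelium and macrophages, led by Des, Kdr and Lyz2, had no called gene by edgeR, DESeq2 or limma-voom. They had 0, 1 and 1 genes with an unadjusted p below 0.05, and without control replicate 3 the first list had 2 and the second 0. Of the liver markers Cyp2e1, named after its value was seen, was called lower (log2 fold change -1.67, edgeR adjusted p = 0.0374), and this call was lost in 8 of 10 fits that each omitted a library, all but those without control replicate 5 and *Stat5* Adipoq replicate 1. The median log2 fold change of the liver list was -2.86 with all libraries and 0.88 without control replicate 3. The part of these marker lists in the levels of Ryr2 and Cacna1a was not tested.

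Genes next to Ryr2 and Cacna1a were examined because position was not used to pick them. Only genes listed in the count files were considered. On the side of lower coordinates, those nearest to Ryr2 were Zp4-ps at 27.4 kb, which had no count, and Chrm3 at 1192 kb, which was not tested. Zmynd11, the third on that side, lay 1787 kb away. On the other side were Mtr at 74.4 kb, Gm10336 at 75.8 kb and Actn2 at 162.5 kb. Around Cacna1a they were Ccdc130, Mri1, D8Ertd738e, Ier2, Nacc1 and Trmt1, at 21.1 to 86.9 kb. None of the 10 tested neighbours was called by edgeR, DESeq2 or limma-voom, and 1 had an unadjusted p below 0.05. That gene was Actn2, an actinin of muscle, whose log2 fold change was -2.75 (edgeR adjusted p = 0.244) and which stood at 41.9 CPM in control replicate 3. Without that library its log2 fold change was -0.20. The other tested neighbours lay between -0.08 and 0.14.

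The genes whose level varied most like Ryr2 and Cacna1a between mice were found by Pearson's r of log2 CPM after subtraction of the genotype mean, over 10 libraries and among 10152 genes with at least 50 counts on average. For Ryr2 these were Nipsnap1 (r = 0.95), Rbm20 (r = 0.94) and Igfbp3 (r = 0.93). For Cacna1a they were Ift43 (r = 0.95), Rbp4 (r = 0.93) and Tmem29 (r = 0.90). These values share library and depth, are the highest of many and are a description without a test. None of the 6 genes was called between the genotypes.

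The promoters of Orai1 and Ryr2 are shown because STAT5 binds the palindrome TTCNNNGAA, in which N is any base and which reads the same on both strands. RefSeq promoter sequences of GRCm38.p6, from 250 bases before to 50 bases after the start of transcription, were matched for 7 of the 10 genes. No sequence was matched for Cacna1a, Itpr1 and Atp2a2. The palindrome occurred in 8.3% of 32851 promoters. Among the 7 genes it was found in the promoter of Orai1, at chr5:123014824-123015123 on the plus strand, with the match in capitals. It was not found in that of Ryr2, at chr13:12106896-12107195 on the minus strand, which says only that these letters are not in the window.
Orai1: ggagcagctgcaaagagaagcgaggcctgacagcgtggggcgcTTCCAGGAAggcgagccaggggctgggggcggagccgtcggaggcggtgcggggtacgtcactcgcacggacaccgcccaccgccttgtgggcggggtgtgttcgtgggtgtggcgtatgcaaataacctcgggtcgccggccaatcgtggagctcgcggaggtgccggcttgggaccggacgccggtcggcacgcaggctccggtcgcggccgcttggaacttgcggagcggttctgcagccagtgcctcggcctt
Ryr2: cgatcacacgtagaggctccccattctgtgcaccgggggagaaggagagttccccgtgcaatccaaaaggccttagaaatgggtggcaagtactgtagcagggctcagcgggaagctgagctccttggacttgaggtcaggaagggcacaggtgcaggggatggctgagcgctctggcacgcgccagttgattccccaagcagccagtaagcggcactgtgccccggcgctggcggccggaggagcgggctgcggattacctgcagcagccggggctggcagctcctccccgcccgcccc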

How the data were processed

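Single reads of 50 bases came from 10 BAT samples, 5 of each genotype. The authors aligned reads to GRCm38 with STAR 2.5.0b and counted them over exons with featureCounts 1.5.0-p1. The deposited values are counts per gene, not normalized, and were used as deposited. The authors' table of the comparison, made with DESeq2 1.16.1, was read only for gene symbols, and its log2 fold changes and p-values were not used.

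The filter kept genes with a total above 45 after division by size factors from DESeq2. The test was the quasi-likelihood F test of edgeR 4.0.16 (R 4.3.3) with TMM scaling and without covariates. Benjamini-Hochberg adjustment covered 13568 genes, and the threshold was 0.05. Exact permutation tests (two-sided) used log2 CPM with prior count 2. Whether counting used the strand is not given in the sources. Exon lengths are unions of exons of GENCODE transcripts linked to RefSeq. The procedure was tested on simulated data. No pair of libraries of a genotype was alike within sampling noise.

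The members and gene lists were chosen with earlier results of these data known. Genes named are the 10 members, Stat5a and Stat5b, of each calcium list the called genes and the most abundant gene per kilobase (for the list of kinase signalling it is not reported here), Ryr1 and Ryr3, the most abundant gene of each marker list, 3 neighbours on either side of Ryr2 and Cacna1a, and for each of these the 3 genes most like it. The text also gives genes outside this rule, added once the values were known or because DESeq2 called them. Of the listed calcium genes 3 were not matched. Alternatives were DESeq2 1.42.0, limma-voom (limma 3.58.1), other scalings and filters, a replicate block and leaving out each library. Other exon lengths, and list medians under each alternative, were added after the data were seen.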

Additional observations from a re-analysis of the deposited data

Results flagged for a closer look

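In 8 of 58 sets of 5 values, 1 value was far from the rest by the Dixon ratio. Chance alone gives about 1 in 20 such sets, or 2.9.

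Control replicate 3 had the highest sums of muscle markers, at 4008 CPM for fast skeletal muscle against 37.4 to 373.7 CPM in the other controls. Markers listed as slow skeletal muscle, of which Myh2 is not confined to slow fibres, summed to 144 CPM there against 3.89 to 4.6 CPM. Heart muscle markers summed to 10.2 CPM there against 2.33 to 2.65 CPM. In *Stat5* Adipoq replicate 1 the fast muscle markers summed to 91.3 CPM against 41.6 to 55.6 CPM in the others.

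In control replicate 4, Itpr3 reached 21.6 CPM, where other controls had 13.3 to 15.6 CPM, and this library also had the highest total, 19514904 counts against 8488129 to 10936218. Stat5a was 20.7 CPM in *Stat5* Adipoq replicate 1, against 15.8 to 16.6 CPM in the others. Macrophage markers summed to 88.7 CPM in *Stat5* Adipoq replicate 3, against 110.4 to 116 CPM. What lies behind these values was not tested.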

How the results depend on the processing

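The number of genes called was 660 with DESeq2's Wald test against 368 with edgeR, and between 185 and 442 when single libraries were left out, with 442 without control replicate 3. In the calcium lists DESeq2 called 7 genes against 3, and leaving out single libraries gave 1 to 4. The log2 fold change of Ryr2 ranged from 2.86 to 3.33 and that of Cacna1a from 1.53 to 1.86 over 17 alternatives each. None of the other 8 genes was called under any of the 17 alternatives, and their adjusted p-values ranged from 0.118 upwards.

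With library size only, 139 genes were higher and 184 lower, so that 43.0% of calls were higher against 51.6%.

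Medians of calcium lists moved as well. For voltage-gated channels the median was -0.30 among genes with at least 50 counts on average, and -0.13 to -0.0069 when single libraries were left out. For sodium-calcium exchangers it was 0.15 to 0.29. The highest medians without a library were above 0 for store-operated entry (0.026), the uniporter (0.024), binding in the endoplasmic reticulum (0.010) and inositol trisphosphate (0.018).

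With exons of all transcripts, control levels moved to 2.34 CPM per kb for Atp2b1, 3.79 for Orai1 and 3.22 for Mcu.

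The sign of values near 0 changed in some alternatives, and the cause was not tested. With library size only, the log2 fold change was -0.0026 for Atp2a2, -0.010 for Itpr3, -0.00029 for Zmynd11 and -0.015 for Nacc1. It was -0.034 for Itpr3 with limma-voom and 0.00016 for Orai1 without a filter. Over single libraries left out it ranged from -0.026 to 0.074 for Atp2a2, from -0.11 to 0.16 for Itpr3 and from -0.053 to 0.057 for Orai1. For Ier2 the range was -0.29 to 0.093 and for Nacc1 it was -0.033 to 0.043. The difference in the share of Itpr3 ranged from -0.439 to 0.0296 percentage points. Itpr1 kept its sign, with log2 fold changes from 0.05 to 0.10.

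With the replicate number as a block, 273 genes were called, 2 of them in the calcium lists. Over all genes, the correlations of deviations between libraries with the same number were -0.23, 0.09, -0.10, 0.05 and -0.13, and 2 of 5 control libraries correlated best with their own number. Whether libraries with the same number share more than that number was not tested further. In log2 CPM, Ryr2 and Cacna1a were below their genotype mean in replicates 1 and 2 of both genotypes. They were above it in replicates 3 to 5 of both, and the cause was not tested. Ryr2 had between 3 and 33 counts per control library, which limits the precision of its fold change.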
